A study of Mus musculus with 8 samples.

Results

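The Schlafen genes are a family clustered on mouse chromosome 11, and 7 of them were taken here by name: Slfn1, Slfn2, Slfn3, Slfn4, Slfn5, Slfn8 and Slfn9. Of the 7, 5 had a row among the 18768 genes of the count table, whose rows hold at least 20 counts over all libraries, and 4 passed the filter on low counts, as did 15153 genes in all. Slfn1 and Slfn4 had no row and were not analysed here. The family was chosen with earlier results of the same libraries known. The contrast between the labels is therefore described for the members, and no p is given for it. Counts of members that passed thresholds in that contrast are a description, not a test.

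RNA was sequenced from 4 mouse fibrosarcoma lines, each a stable culture made from a tumor that the carcinogen methylcholanthrene had induced under the skin. Lines MC010 and MC011 came from mice labelled IRF8 KO, made without the transcription factor IRF8. Lines MC654 and MC659 came from WT mice, which the study's results give as C57BL/6. The study does not name the strain of the IRF8 KO mice, so a difference of strain cannot be told apart from the label. No agent was added to the cultures, and the age of the mice is not given in the sources used here. With 2 libraries per line, 4 libraries stood against 4, but only 2 lines against 2, and a p between lines measures only the spread between libraries of a line. Libraries held 74063616 to 116206078 counts. The counts of the targeted gene, Irf8, ran from 10 to 442 under the label IRF8 KO and from 0 to 2 under the label WT, which goes against the labels, so every direction below follows the label and not the RNA of Irf8. Counts per gene do not show which exons of Irf8 the reads came from, and the study's genotyping, which assigned the lines as labelled, was not analysed here. The lines expressed all 5 mesenchymal markers examined (Vim, Col1a1, Col1a2, Pdgfrb and Fn1), with a sum of 8089 to 9542 CPM in the libraries labelled IRF8 KO and 13552 to 14888 CPM in those labelled WT. The sums differ mainly through Fn1, with a mean of 1587 CPM under the label IRF8 KO and 7973 CPM under WT. Col1a1 and Col1a2 also had a lower mean under the label IRF8 KO, while Vim (6221 against 4745 CPM) and Pdgfrb had a higher mean. CPM are counts scaled to the size of each library after edgeR's TMM correction, and every mean and SD below is of CPM unless given per kb.

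Schlafen proteins share an N-terminal domain and fall into short forms (Slfn1 and Slfn2), intermediate forms (Slfn3 and Slfn4) and long forms with a helicase-like end (Slfn5, Slfn8 and Slfn9). They were first described in developing T cells, where they are tied to growth arrest, and several are induced by type I interferon. Type I interferon acts through JAK kinases and transcription factors, STAT2 and IRF9 among them, on a promoter sequence called the interferon-stimulated response element (ISRE), while interferon gamma acts on the gamma-activated site (GAS).

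The 250 bases before a start site are shown for the 3 members whose promoter held an ISRE core and for Slfn2 and Slfn3, the members with the largest differences between the labels. Capitals mark the ISRE core, searched on both strands as GAAA, any 2 bases and GAAA again. All sequences are from RefSeq on GRCm38.p6 and read toward the gene.
Slfn9, chr11:82991831-82992080, reverse strand: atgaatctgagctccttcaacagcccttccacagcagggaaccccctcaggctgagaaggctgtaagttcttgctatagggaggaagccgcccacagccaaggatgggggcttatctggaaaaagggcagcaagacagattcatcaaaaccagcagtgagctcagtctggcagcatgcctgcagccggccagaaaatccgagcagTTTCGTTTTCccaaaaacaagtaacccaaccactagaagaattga
Slfn8, chr11:83020811-83021060, reverse strand: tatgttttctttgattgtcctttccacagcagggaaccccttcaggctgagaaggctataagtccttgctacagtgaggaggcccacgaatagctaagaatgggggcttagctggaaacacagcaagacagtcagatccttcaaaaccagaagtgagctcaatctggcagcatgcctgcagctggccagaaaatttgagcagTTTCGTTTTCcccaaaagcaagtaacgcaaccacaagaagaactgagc
Slfn5, chr11:82951852-82952101, forward strand: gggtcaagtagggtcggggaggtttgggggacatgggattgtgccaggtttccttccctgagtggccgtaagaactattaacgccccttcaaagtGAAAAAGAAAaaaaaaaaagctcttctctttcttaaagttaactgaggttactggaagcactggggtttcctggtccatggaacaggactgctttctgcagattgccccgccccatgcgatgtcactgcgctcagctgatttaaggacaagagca
Slfn2, chr11:83064862-83065111, forward strand: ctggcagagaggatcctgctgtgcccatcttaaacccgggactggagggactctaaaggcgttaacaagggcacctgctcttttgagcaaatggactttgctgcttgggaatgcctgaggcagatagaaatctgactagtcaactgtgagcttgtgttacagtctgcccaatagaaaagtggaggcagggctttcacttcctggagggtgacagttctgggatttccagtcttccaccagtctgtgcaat
Slfn3, chr11:83191080-83191329, forward strand: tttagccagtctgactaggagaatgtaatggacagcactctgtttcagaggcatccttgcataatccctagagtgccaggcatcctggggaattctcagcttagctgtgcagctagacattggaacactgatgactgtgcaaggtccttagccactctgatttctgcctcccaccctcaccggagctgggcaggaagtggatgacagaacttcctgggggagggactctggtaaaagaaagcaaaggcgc
The RefSeq table held a promoter for all 7 members. The core was found for Slfn5, Slfn8 and Slfn9 and not for Slfn1, Slfn2, Slfn3 or Slfn4, while 3.44% of all 32851 promoters of the same 300-base window held it. Counted from the start site, the match lay at -45 to -36 in Slfn9 and at -48 to -39 in Slfn8, with the same letters in both, and at -155 to -146 in Slfn5. The start site used for Slfn5 lies within the span that RefSeq gives the gene, which begins at 82951349. The stretch shown for Slfn5 is therefore inside that span and not before it. RefSeq gives Slfn8 another start site, from which the same match lies at -136 to -127. Slfn8 and Slfn9 were identical at 80.2% of aligned positions over these upstream stretches, and every other pair of members was at most 53.4% identical. The GAS motif, TTCNNNGAA, whose letters make the same pattern on both strands, was in no member promoter and in 8.30% of all promoters. A match describes letters, not binding, and the absence of one says nothing about a factor.

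The plot of CPM by library shows that the members did not move together between the labels. Of the 5 members with a row, 4 had libraries that did not overlap between the labels, 3 lower and 1 higher in those labelled IRF8 KO, where 36.9% of all rows of the table did not overlap, 17.6% lower and 19.3% higher. By the thresholds of the study, an adjusted p under 0.05 from edgeR and a log2 fold change over 0.59 in size, 2 of the 4 tested members were lower (8.72% of all genes tested) and 1 higher (13.7%), or 3 in either direction (22.5%). The median log2 fold change of the 4 was -1.29, beside 0.02 over all genes tested. The edgeR fit by label counts the libraries of a line as separate samples, and with the counts of each line summed, 0 of 16927 genes passed in edgeR, with 3658 at an unadjusted p under 0.05. These shares are given as background, and nothing is read from them because the label contrast was in view when the family was chosen.

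**Figure D1:**
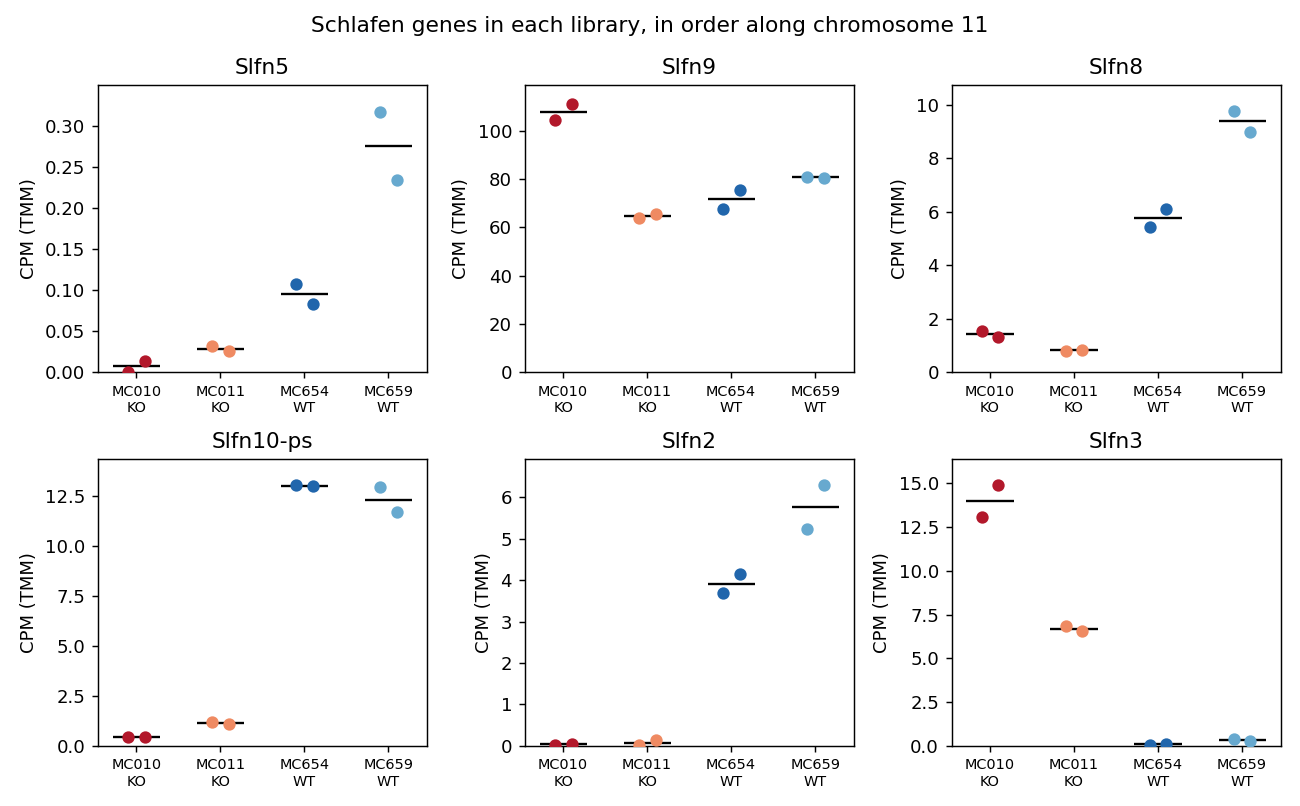
CPM (TMM) of 5 Schlafen members and the pseudogene Slfn10-ps in each of 8 libraries, 2 points per line, with the line mean as a bar and each panel on its own linear axis from 0. Slfn2, Slfn5, Slfn8 and Slfn10-ps were lower in every library labelled IRF8 KO than in every library labelled WT, Slfn3 was higher, and Slfn9 overlapped.

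Slfn2, a short member required for T cell quiescence in mice (ENSMUSG00000072620, chromosome 11 of mm10, 83065112 to 83070678, forward strand), was nearly absent from the lines labelled IRF8 KO. MC010 gave 2 and 4 counts, MC011 gave 1 and 11, MC654 gave 307 and 352, and MC659 gave 462 and 566. As CPM the libraries stood at 0.0175 and 0.0544 (MC010), 0.0104 and 0.139 (MC011), 3.68 and 4.14 (MC654), and 5.24 and 6.29 (MC659). Every library labelled WT was thus above every library labelled IRF8 KO, and 2 of the 4 latter libraries were under 3 counts, taken as the floor of a library. The mean was 0.0554 ± 0.0591 CPM (SD, n = 4 libraries of 2 lines) against 4.84 ± 1.17 CPM (SD, n = 4), and the summed counts gave a level 98.2 times as high in the libraries labelled WT (95% exact interval 62.0 to 166, counting error only). In the edgeR fit the log2 fold change was -6.49 (standard error 0.69). Taken line by line, it lay between -7.43 for MC010 against MC659 and -5.80 for MC011 against MC654.

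Slfn3, an intermediate member studied in the differentiation of gut epithelium (ENSMUSG00000018986, 83191330 to 83215154, forward strand), went the other way. MC010 was at 13.1 and 14.9 CPM, MC011 at 6.83 and 6.56, MC654 at 0.0719 and 0.0941, and MC659 at 0.363 and 0.256. The values of MC654 come from 6 and 8 counts and those of MC659 from 32 and 23 counts, while MC010 had 1493 and 1094. All 4 libraries labelled IRF8 KO were above all 4 labelled WT, with means of 10.3 ± 4.27 CPM (SD, n = 4) and 0.196 ± 0.138 CPM (SD, n = 4). The summed counts gave a ratio of 52.0 (95% exact interval 41.0 to 67, counting error only), and the log2 fold change was 5.70 (standard error 0.61). It ranged from 4.43 for MC011 against MC659 to 7.37 for MC010 against MC654.

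Slfn8, a long member (ENSMUSG00000035208, 83002158 to 83020810, reverse strand), was lower under the label IRF8 KO but present in all of them. MC010 was at 1.55 and 1.31 CPM, MC011 at 0.778 and 0.835, MC654 at 5.42 and 6.11, and MC659 at 9.78 and 8.97. The groups did not overlap, with means of 1.12 ± 0.372 CPM (SD, n = 4) and 7.57 ± 2.13 CPM (SD, n = 4), and the fitted log2 fold change stood at -2.76 (standard error 0.32). Slfn5, a long member with a human counterpart of the same name (ENSMUSG00000054404, 82951349 to 82964840, forward strand), was below the filter, with 0 and 1 counts in MC010, 3 and 2 in MC011, 9 and 7 in MC654, and 28 and 21 in MC659. Its libraries did not overlap between the labels either, and the summed counts gave a level 11.4 times as high in those labelled WT (95% exact interval 4.94 to 32.1, counting error only). With no filter on low counts its log2 fold change was -3.35 (standard error 0.82).

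Slfn9, the long member next to Slfn8 (ENSMUSG00000069793, 82978390 to 82991830, reverse strand), was the most abundant and did not separate the labels. MC010 was at 105 and 111 CPM, MC011 at 64.0 and 65.7, MC654 at 67.8 and 75.5, and MC659 at 81.1 and 80.6. The WT lines lay between the lines labelled IRF8 KO, whose mean was 86.4 ± 25.0 CPM (SD, n = 4) against 76.2 ± 6.18 CPM (SD, n = 4). On the log2 scale the fitted difference was 0.18 (standard error 0.19). Against the mean of the WT lines it was 0.50 for MC010 and -0.23 for MC011, so that this direction turned with the line, and with MC010 left out it was -0.25.

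Slfn8 and Slfn9 are neighbours of similar sequence, so their counts were set side by side. Slfn8 had 1.18% to 1.48% of the counts of Slfn9 in the 4 libraries labelled IRF8 KO, 7.99% and 8.09% in MC654, and 12.1% and 11.1% in MC659. Of the distinct 75-base stretches in the annotated transcripts of Slfn8, 6.99% also occurred in another gene (Slfn10-ps or Slfn9), and of those of Slfn9, 5.90%. The share was 6.78% for Slfn3 (with Gm11427 and Slfn4 among others), 8.22% for Slfn5 (with Slfn5os, which overlaps it on the other strand, among others), and 1.70% for Slfn2 (with Slfn4). Whether reads of Slfn9 were counted on Slfn8 in the lines where Slfn8 was low was not tested, and the read length is not given in the sources used here.

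Slfn10-ps, a transcribed pseudogene between Slfn8 and Slfn2 (83028130 to 83040042, reverse strand), is no member but stood in the same rows. MC010 was at 0.455 and 0.449 CPM, MC011 at 1.17 and 1.10, MC654 at 13.1 and 13.0, and MC659 at 12.9 and 11.7, with a log2 fold change of -3.99 (standard error 0.37). Along the chromosome, Slfn8, Slfn10-ps and Slfn2, all lower under the label IRF8 KO, lie between Slfn9 and Slfn3, while Slfn5, whose few counts were also lower, lies on the far side of Slfn9. Slfn1 and Slfn4, between Slfn2 and Slfn3, were not analysed here.

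Levels were compared between members only per exon length, from 1.66 kb for Slfn2 to 6.33 kb for Slfn5. Slfn9 had the highest level in every library, from 10.7 to 18.6 CPM per kb, and held 68.9% to 83.3% of the summed level of the 5 members. The gene in the next place differed between the labels. It was Slfn3 in MC010 (4.10 CPM per kb) and MC011 (1.96 CPM per kb), where it held 14.5% to 18.7% of the sum, and Slfn2 in MC654 (2.35 CPM per kb) and MC659 (3.46 CPM per kb), where it held 14.8% to 19.3%. Slfn8 took the third place in all 4 lines, with 0.349 CPM per kb in MC010, 0.197 in MC011, 1.41 in MC654 and 2.29 in MC659. Slfn3 and Slfn5 in MC654, at 0.0243 and 0.0150 CPM per kb, rest on 6 to 9 counts per library, and their order cannot be told at this depth. The same holds for Slfn2 and Slfn5 in the lines labelled IRF8 KO, with 0 to 11 counts. The sum of the 5 members was 21.8 and 23.3 CPM per kb in MC010, 12.9 and 13.2 in MC011, 14.9 and 16.7 in MC654, and 19.3 and 19.6 in MC659, so the WT lines lay between those labelled IRF8 KO.

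**Figure D2:**
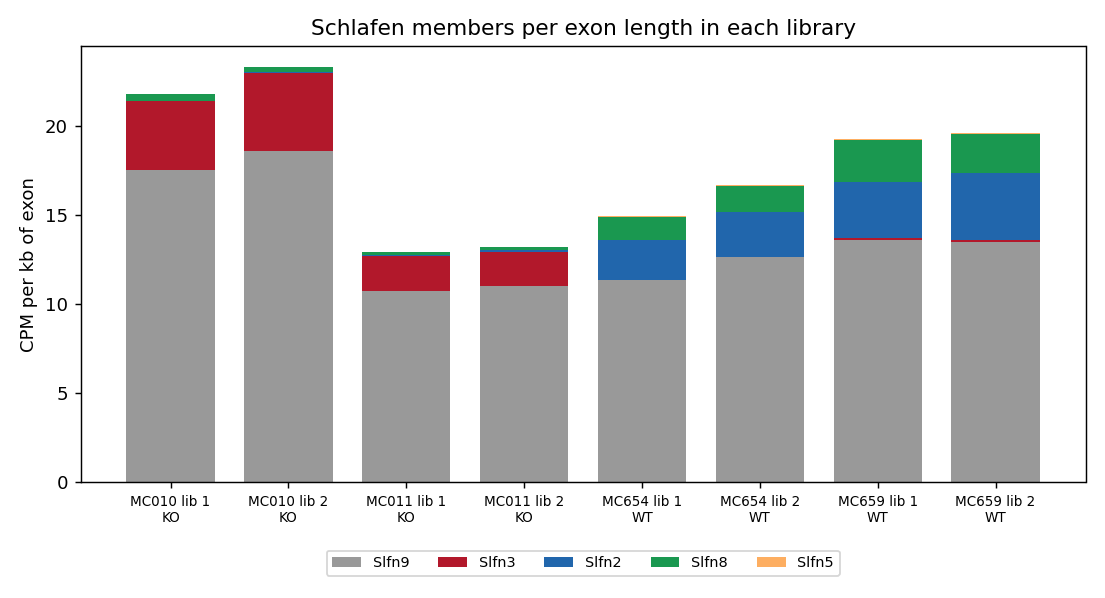
Stacked bars of CPM per kb of exon for Slfn9, Slfn3, Slfn2, Slfn8 and Slfn5 in each of the 8 libraries. Slfn9 fills 68.9% to 83.3% of each bar, Slfn3 most of the rest in MC010 and MC011, and Slfn2 with Slfn8 most of the rest in MC654 and MC659.

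Lines of the same label were then compared, a contrast other than that between the labels. Since the genes were chosen with earlier results of all 8 libraries known, these p-values may not be free of that choice. In an edgeR fit with one group per line, MC010 was above MC011 for 3 of the 4 tested members and below for 0, where 15.7% of all genes tested were higher and 16% lower (31.6% in either direction). DESeq2 also had 3 higher and 0 lower, and 0 were lower at an unadjusted p under 0.05 in edgeR. The median of the 4 members was 0.79 on the log2 scale, beside 9e-04 over all genes tested. Slfn9 was higher in MC010 by 0.73 on the log2 scale (standard error 0.06, 95% interval 0.61 to 0.86, and an adjusted p of 1.92e-08 in edgeR). Slfn3 was higher by 1.06 (standard error 0.12, 95% interval 0.80 to 1.32, edgeR adjusted p = 1.77e-06). Slfn8 was higher by 0.84 (standard error 0.18, adjusted p = 0.000767, edgeR), so that Slfn8, low in both lines, was lowest in MC011. In these lines Slfn8 had only 1.18% to 1.48% of the counts of Slfn9. Whether its counts there were reads of Slfn9 was not tested, so the 2 differences may not be separate. For Slfn2 the difference was -1.07 with a 95% interval of -3.01 to 0.87 (adjusted p = 0.322, edgeR). It rests on 1 library, since without library 2 of MC011, which had 11 counts, it was 1.505, and without library 1 it was -2.06. At these counts no difference of Slfn2 between the lines labelled IRF8 KO could be told. Slfn2 passed the filter on low counts through its level in the WT lines, yet it is among the 4 members counted here and in their median.

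MC654 was below MC659 for 2 of the 4 tested members and above for 0, where 3.71% of all genes tested were lower and 1.24% higher (4.95% in either direction). DESeq2 also had 2 lower and 0 higher, and in edgeR 4 were lower and 0 higher at an unadjusted p under 0.05. The median of the 4 members was -0.63, beside -0.003 over all genes tested. The difference of Slfn3 was -1.88 (standard error 0.38, edgeR adjusted p of 0.00333), from 14 counts in MC654 against 55 in MC659. At these counts Slfn3 passed the filter on low counts through its level in the lines labelled IRF8 KO, while Slfn5, with similar counts in the WT lines, did not pass. That of Slfn8 was -0.70 (standard error 0.13, adjusted p = 0.00157, edgeR). The difference of Slfn2 was -0.56 (95% interval -1.05 to -0.07, adjusted p = 0.129, edgeR) and that of Slfn9 -0.17 (95% interval -0.30 to -0.05, adjusted p = 0.0526, edgeR), and neither passed the thresholds. For Slfn5 the summed counts were 16 in MC654 and 49 in MC659, a ratio of 2.89 (95% exact interval 1.62 to 5.45, counting error only), and with no filter on low counts its adjusted p from edgeR was 0.263. All 5 members with a row therefore had their lower mean in MC654, of which 2 passed.

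**Figure D3:**
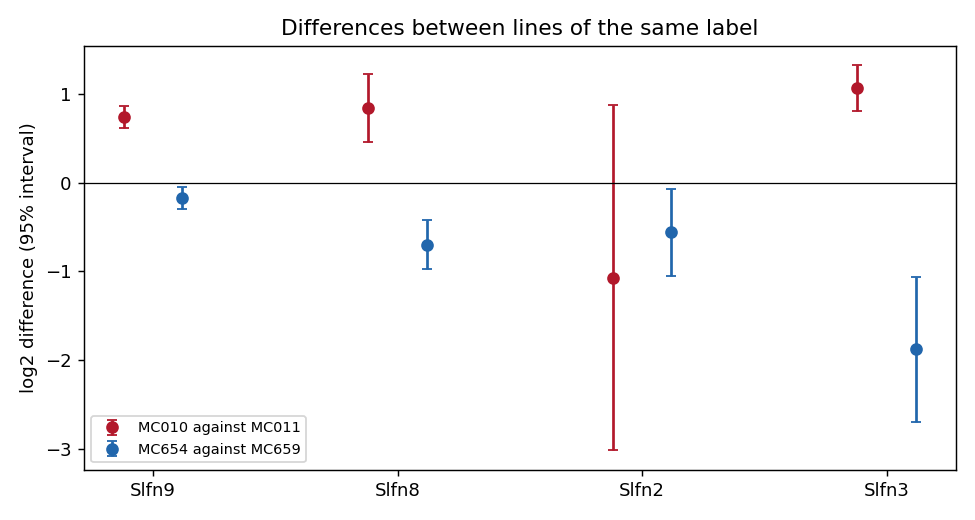
Log2 difference with its 95% interval (edgeR, one group per line) for the 4 tested members, MC010 minus MC011 in red and MC654 minus MC659 in blue. Slfn9, Slfn8 and Slfn3 lie above 0 between the lines labelled IRF8 KO, all 4 intervals lie below 0 between the WT lines, where Slfn8 and Slfn3 passed the thresholds, and the interval of Slfn2 in MC010 against MC011 runs from -3.01 to 0.87.

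The genes around the cluster were compared in the same contrasts. In the cluster and within 500 kb of either end, 24 genes outside the Schlafen family had a row and 18 were tested. Under the label IRF8 KO, 1 of them was higher and 3 were lower, where 13.7% of all genes tested were higher and 8.72% lower. The median log2 fold change of the 18 was -0.29, beside 0.02 over all genes tested. Genes close to the cluster on either side, Nle1 (-0.31), Rad51d (-0.28) and Ap2b1 (-0.38), differed by less than the threshold of 0.59 in log2 fold change. Within the cluster the processed pseudogene Gm11425, between Slfn8 and Slfn10-ps, was lower (-1.59, adjusted p = 0.000585 from edgeR). Farther out, the chemokine genes Ccl5 (-3.08) and Ccl9 (-0.98) were lower and the matrix protease gene Mmp28 (3.10) higher.
Gm20234, which overlaps Slfn2 on the other strand, had 0 or 1 count per library under the label IRF8 KO, 9 and 2 in MC654 and 18 and 15 in MC659. The kit was stranded, but the strand setting of the counting is not given in the sources used here, so reads of Slfn2 and Gm20234, and of Slfn5 and Slfn5os, cannot be told apart. Between MC010 and MC011, 2 of the 18 neighbours were higher and 4 lower, where 15.7% of all genes tested were higher and 16% lower. Of these neighbours, 1190001M18Rik, which RefSeq places within the span of Slfn9, was higher by 2.90 (standard error 0.74), from 40 and 50 counts in MC010 and 12 and 0 in MC011. Between the WT lines, Ccl5, Ccl9 and Mmp28 were lower in MC654 and 0 were higher, with 1 higher at an unadjusted p under 0.05 in edgeR and 0 called by DESeq2. Over all genes tested, 3.71% were lower and 1.24% higher in MC654.

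**Figure D4:**
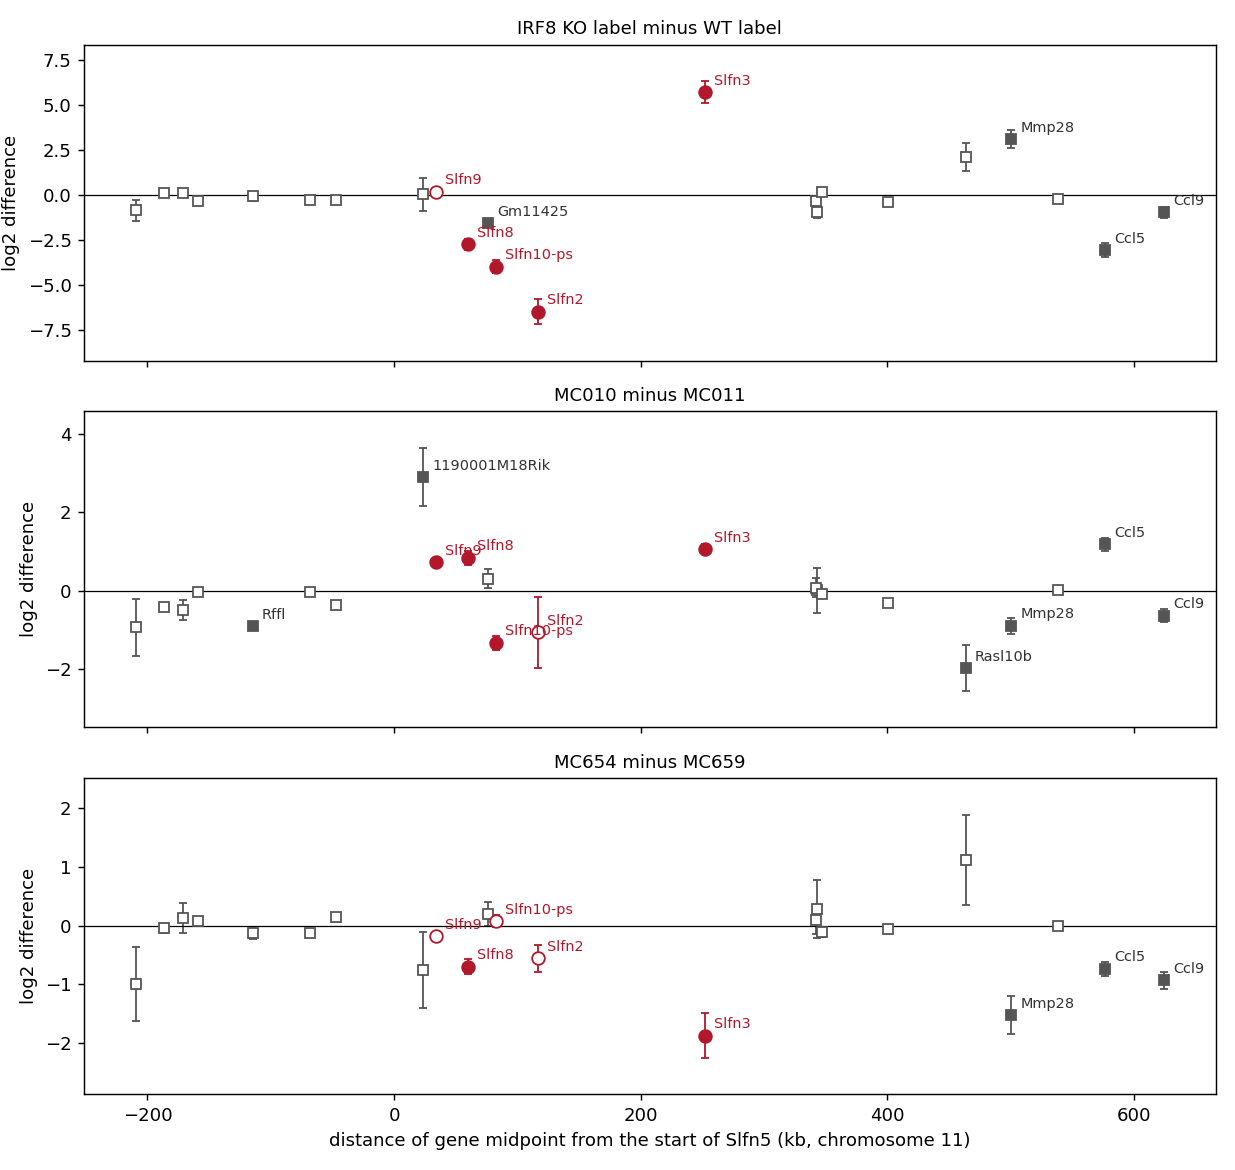
Log2 difference (y axis, with standard error) of each tested gene in and within 500 kb of the Schlafen cluster against the distance of its midpoint from the start of Slfn5 in kb, for 3 contrasts. Red circles are Schlafen genes, gray squares are neighbours, and filled symbols passed both thresholds. In the upper panel the fill of the Schlafen genes is a description, not a test. In the upper panel Slfn8, Slfn10-ps and Slfn2 fall to -2.76, -3.99 and -6.49 and Slfn3 stands at 5.70, while most neighbours lie near 0.

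Of 16 genes listed for interferon signalling, inhibitors of it included, 8 were lower under the label IRF8 KO, 2 were higher and 6 did not pass the thresholds. Over all genes tested, 8.72% were lower and 13.7% higher. The median log2 fold change of the 16 was -0.43, beside 0.02 over all genes tested. The transcription factor genes Stat2 and Irf9 were lower, with log2 fold changes of -1.36 (standard error 0.21) and -1.37 (standard error 0.19), as were Irf1 (-0.74), Irf3 (-0.76), Irf5 (-2.94), Irf7 (-3.87) and Usp18 (-5.05), an interferon-induced brake on the receptor. The kinase gene Jak2 (1.15) and Socs1 (0.90), an inhibitor of JAK kinases, were higher, and the receptor genes Ifnar1 (0.48), Ifnar2 (0.37), Ifngr1 (0.11) and Ifngr2 (0.21) did not pass the fold threshold. Between MC010 and MC011, 5 of the 16 were higher and 1 lower, where 15.7% of all genes tested were higher and 16% lower. Irf7 (1.42), Usp18 (2.72), Jak2 (0.82) and Socs1 (0.84) were among those higher in MC010, as were Slfn3, Slfn8 and Slfn9, and Ifngr1 (-0.76) was lower, while Irf9 stood at -0.57, short of the fold threshold. Between MC654 and MC659, Irf7 (-0.92), Usp18 (-0.77) and Stat2 (-0.69) were lower in MC654, as was Slfn8. Slfn3 was lower too, but it passed the filter on low counts through its level in the lines labelled IRF8 KO. Here 0 of the 16 were higher, with 2 at an unadjusted p under 0.05 in edgeR and 0 called by DESeq2. Over all genes tested, 3.71% were lower and 1.24% higher in MC654.

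Slfn2 is known to shield tRNA from cleavage by angiogenin in T cells, and 5 genes of tRNA cleavage and protection were examined for that reason. Between the labels 0 of the 5 passed both thresholds in edgeR, where 22.5% of all genes tested passed. The log2 fold changes were 0.40 for Ang, the gene for angiogenin, 0.20 for its inhibitor Rnh1, -0.35 and -0.11 for the tRNA methyltransferases Trdmt1 and Nsun2, and -0.36 for the tRNA-processing enzyme Elac2. Adjusted p-values from edgeR were 0.0517 or higher, with 1 of the 5 higher and 2 lower at an unadjusted p under 0.05, and DESeq2 called 0. Between MC010 and MC011, 1 of the 5 was lower, Nsun2 (-0.96), and 0 were higher. Over all genes tested, 16% were lower and 15.7% higher. Between the WT lines 0 of the 5 passed, where 4.95% of all genes tested passed in either direction. There 1 was higher and 2 lower at an unadjusted p under 0.05 in edgeR, and DESeq2 called 0.

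The genes with the pattern most like each tested member were found by Euclidean distance over the 8 libraries between log2 CPM profiles, each centred on its mean, among genes with a mean log2 CPM of at least 1. For Slfn8 they were Cmpk2 (distance 0.19), Irgm2 (0.46) and Lgals3bp (0.57), with Cmpk2 at 3.34 CPM in MC010, 2.01 in MC011, 13.1 in MC654 and 22.3 in MC659. For Slfn9 they were Gbe1 (0.11), Nkiras1 (0.14) and Bbs2 (0.14). For Slfn3 they were Ulbp1 (1.33), Dkk3 (1.35) and Cyp1b1 (1.4996), and for Slfn2 Ifi44 (2.23) and Kif21b (2.38). The larger distances of Slfn2 and Slfn3 stand beside their low counts in 2 lines each. Both also had a mean log2 CPM under 1 themselves, so genes with a mean as low as theirs were not among the candidates. The reason for the larger distances was not tested. The 8 points of a profile are 4 pairs of libraries from the same lines.

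Schlafen genes are also expressed in blood cells, so markers of such cells were read beside them. In bulk RNA, fewer cells of a type and less RNA per cell cannot be told apart. Of 10 hematopoietic markers 5 had a row, with Itgam, Cd3e, Adgre1 and Lyz2 among those that had none. The sum of the 5 came to 5.73 to 7.97 CPM in the libraries labelled IRF8 KO and 9.67 to 11.5 CPM in those labelled WT, most of it from Cd68. Ptprc, which encodes the leukocyte antigen CD45, had 1 or 2 counts in each library labelled WT, under the floor, where Slfn2 had 307 to 566 counts. In the lines labelled IRF8 KO it had 18 and 13 counts in MC010 and 0 in both libraries of MC011. Csf1r was higher in the libraries labelled WT, at 0.935 to 1.80 CPM against 0.245 to 0.477 CPM, and Cd68 at 8.25 to 10.1 CPM against 5.25 to 6.74 CPM. Cd79a was at 2 to 6 counts against 10 to 17, and Laptm5 had 68 and 28 counts in MC010, 0 and 1 in MC011 and 0 to 2 in the WT lines. The part of the cells behind Csf1r and Cd68 in the Schlafen values was not tested.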

How the data were processed

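Total RNA of 8 libraries from 4 lines was sequenced with a stranded mRNA kit. The authors aligned reads to mm10 (GRCm38.p6) with STAR and made raw counts per gene with HTSeq, in versions 2.7.3a and 0.11.2 per the submitters' processing notes, while the study's methods name other versions of both. The deposited signal columns, which are counts divided by one DESeq2 size factor per library, and the authors' own comparison (mean, fold change, error, statistic and p-values) were not used. Columns were matched to libraries by name.

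Tests used the raw counts, in R 4.3.3 with edgeR 4.0.16 (filterByExpr by label, TMM, quasi-likelihood test with robust estimation, Benjamini-Hochberg adjustment over 15153 genes), once by label and once with one group per line. Genes were called at an adjusted p under 0.05 and a log2 fold change over 0.59 in size. Standard errors came from the fold change and its F statistic. Exon lengths were from GENCODE M21, which gave the same coordinates for 17732 of 18768 rows. Promoters were from RefSeq. No protein sequences were used. A count of 3 was the floor, 0.0262 to 0.0408 CPM. Alternatives were DESeq2 1.42.0, limma-voom, other scalings, no filter, blocks, sums per line, and libraries or lines left out.

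The members and lists were chosen with earlier results of these data known. The genes that could be named were the Schlafen rows, Irf8, the lists, the neighbours within 500 kb and the 3 nearest patterns per tested member, and a few of these genes are not reported here. Protein lengths and identities were not computed.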

Additional observations from a re-analysis of the deposited data

Results flagged for a closer look

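MC010 and MC011, both labelled IRF8 KO, differed in how far they stood from the WT lines. The WT mean cancels in that difference, so it is the contrast between MC010 and MC011 given above (edgeR, one group per line). In that contrast 31.6% of all genes tested passed the thresholds in either direction. MC010 exceeded MC011 by 1.06 for Slfn3, 0.84 for Slfn8 and 0.73 for Slfn9, all on the log2 scale. For Slfn9 the 2 lines lay on opposite sides of the WT mean, at 0.50 and -0.23. For Slfn3 both lay above it, at 6.43 and 5.37, and for Slfn8 both below, at -2.35 and -3.19. No library stood far from the other 3 of its label in the 10 groups of 4 examined. The rate of about 1 in 20 by chance assumes 4 separate samples. Each group was 2 libraries from each of 2 lines, so that rate need not hold here.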

How the results depend on the processing

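For the 4 tested members, 12 differences were recomputed under 196 alternatives in all, and 190 kept their direction and side of the thresholds. Those that did not were as follows. With the counts of each line summed, 0 members were higher and 0 lower between the labels. Of all 16927 genes then tested, 0 passed, with 3658 at an unadjusted p under 0.05 in edgeR. The log2 fold changes were then -6.57 for Slfn2, 5.70 for Slfn3 and -2.74 for Slfn8. This alternative has 2 lines against 2. With MC010 left out, Slfn9 was -0.25. Between MC010 and MC011, Slfn2 was 1.505 without library 2 of MC011 and -2.06 without library 1.
With each library left out in turn, members between the labels stayed at 1 higher and 2 lower, between MC654 and MC659 at 0 higher and 2 lower, and between MC010 and MC011 at 3 higher and 0 to 1 lower. With DESeq2, 3 members were lower between the labels, since Slfn5 was tested there too, and 2 neighbours were higher and 6 lower. The cause of the change in neighbours was not tested. No share over all genes is given here for DESeq2 or with a library left out. These counts therefore show only how the calls moved, and nothing more is read from them.
When the library number was used as a replicate block, the log2 fold changes between the labels were -6.70 for Slfn2, 5.71 for Slfn3, -2.76 for Slfn8 and 0.18 for Slfn9, and the block changed no call of a member. Over all genes tested, the deviations from the line means of libraries with the same number correlated at -0.03 to 0.06 over 6 pairs of lines. A batch that touched few genes or only some lines was not tested. Depth limits Slfn5, and Slfn2 in the lines labelled IRF8 KO, which had at most 11 counts per library.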
